A study of Sus scrofa with 12 samples.

Results

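The genes described here make, carry, bind and break down retinoic acid, the active form of vitamin A, and were measured by RNA sequencing in the uterus of neonatal gilts. They were picked by name and role, with earlier results of these data known. The rule names 9 genes: ALDH1A1, ALDH1A2, ALDH1A3, RBP4, STRA6, CRABP1, CRABP2, CYP26A1 and CYP26B1. Of these, 8 were found in the table and CYP26A1 is not analysed here. CRABP2 had a second entry, called CRABP2-like below, so that 9 of the table's 20390 rows were followed. All 9 were above the lowest listed value of 1 in every library, and all 9 were among the 16862 genes tested.

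The gilts were crossbreds of Landrace, Yorkshire, Duroc and Hampshire and formed 3 groups of 4 animals. PND2N gilts nursed freely for 48 h after birth, PND2R gilts received a commercial milk replacer for the same time, and both were killed at 50 h of age. PND0 gilts were killed within 1 h of birth and had not nursed. No transgene, deletion or drug is named for any group. Age and feeding changed together between PND0 and either day 2 group, so their parts in those contrasts cannot be told apart, whereas PND2N against PND2R differ in feed at one age. The labels give no litter, so animals of a group could be sisters.

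Whole uterus was used, trimmed of connective tissue, so each value is a mixture of luminal epithelium, stroma, smooth muscle, vessels and serosal mesothelium. In such bulk samples, fewer cells of a type and less RNA per cell cannot be told apart. Values are the authors' normalized values on a linear scale. Whether they are scaled to gene length is not given in the sources used here, so levels are compared between libraries and never between genes. Column totals were 26534100 to 29544100. The uterine label was checked on HOXA10 and HOXA11, patterning genes of the female tract. Their normalized values were 3468 to 8409 for HOXA10 and 3827 to 8542 for HOXA11.

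Libraries differed within groups. Animals 1 of PND2N and 2 and 3 of PND2R stood apart from the other 9 libraries. Their summed normalized values for 11 smooth muscle markers (of 12 listed) were 331031 to 426247, against 165232 to 279220 in the others. Over 9 stromal fibroblast markers (of 10 listed) the sums were 236961 to 302981 in those 3 libraries, against 341848 to 519367. VWF, an endothelial clotting factor, was at 24.2 to 90.2 there, against 591 to 3194, while the sum over all 11 endothelial markers was 11953 to 15926 there and 10820 to 22018 elsewhere. Newborn libraries also split. Over 12 epithelial markers (of 15 listed) animals 1 and 2 of PND0 summed to 109851 and 114731 and animals 3 and 4 to 33114 and 27404, with day 2 libraries at 54230 to 97677. By the filter for testing, each tested marker of these 4 lists was above the floor in at least 4 libraries. The libraries that stood apart also had the 3 largest column totals, a lower median normalized value (147 to 151, against 195 to 234 in the other 9) and more genes at the floor (21.3% to 22.1%, against 17.8% to 20.4%). Results are therefore given with all 12 libraries, and day 2 differences of the members also without PND2N 1, PND2R 2 and PND2R 3, a choice made after seeing the data.

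Retinol reaches tissues bound to the serum carrier RBP4 and can enter cells through the membrane receptor STRA6. Inside the cell it is oxidised reversibly to retinaldehyde, which the ALDH1A enzymes oxidise irreversibly to retinoic acid. CRABP1 and CRABP2 bind retinoic acid in the cytoplasm, CRABP2 passing it to nuclear receptors, and CYP26 enzymes hydroxylate it for clearance. In the embryo, retinoic acid patterns the Mullerian ducts, from which the uterus arises, and in the mouse it directs them towards uterine rather than vaginal development.

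CRABP1 was the only member that passed the test between newborn and day 2 uteri. It rose in day 2 uteri, 1.94-fold over PND0, and each of the 8 day 2 libraries lay above each of the 4 newborn ones. The other 8 entries did not pass the test in any contrast. Among these, ALDH1A2 was 3.30-fold and CYP26B1 4.11-fold lower at day 2 than in PND0 on the scale of the fit, and CRABP2 had a difference of 0.79 on the log2 scale, all short of the threshold. In log2 terms ALDH1A2 was at -1.72 and CYP26B1 at -2.04. Without PND2N 1, PND2R 2 and PND2R 3 these shrank to -0.97 and -0.89, and that of CRABP2 to 0.51. No member passed between nursed and replacer-fed gilts. Calls were made with limma on log2(value + 1) over all 12 libraries, two-sided, with Benjamini-Hochberg adjustment over all tested genes and 0.05 as threshold. The pseudocount understates differences of the lowest gene, CYP26B1.

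**Figure D1:**
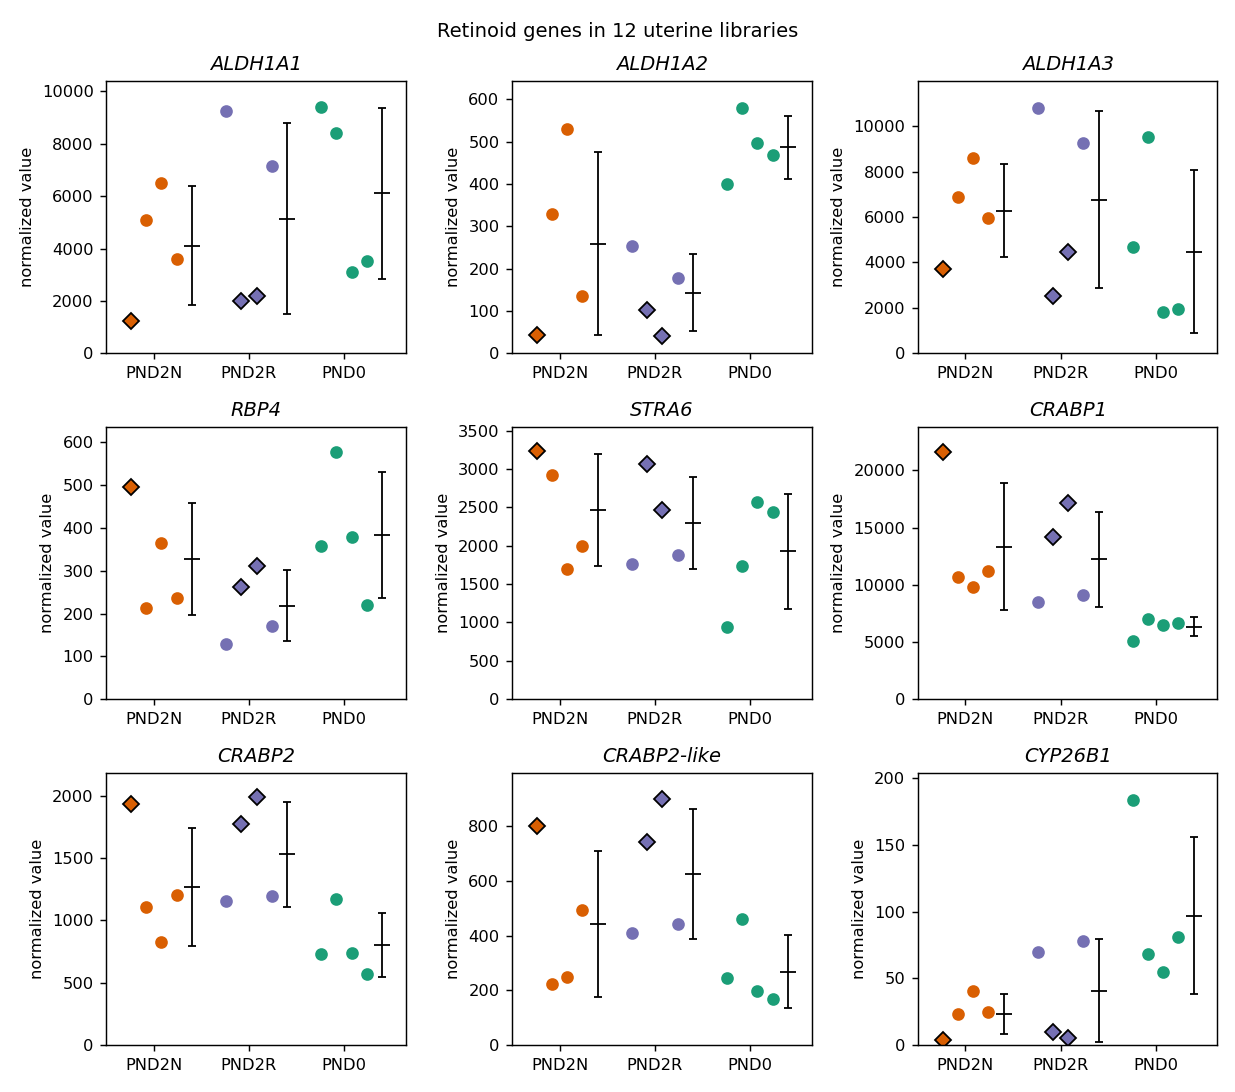
Normalized value (linear scale, vertical axis from 0) of the 9 retinoid entries in PND2N, PND2R and PND0 uteri, 1 point per animal, with the mean and SD of 4 animals in black; black-edged diamonds are PND2N 1, PND2R 2 and PND2R 3. CRABP1 lies at 8466 to 21643 in the 8 day 2 libraries, above the 5107 to 7025 of PND0, whereas every other panel shows overlap between at least 1 day 2 group and PND0.

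These counts lie near the background. Of all tested genes, 18.1% were called in the day 2 contrast (mean of PND2N and PND2R against PND0), 9.57% higher and 8.49% lower, and 1 of 9 retinoid entries was called. At an unadjusted limma p under 0.05 the day 2 contrast held 5 of 9 entries, against 37.8% of all genes. In PND2R against PND0, 15% of genes (7.7% higher and 7.31% lower) and 1 of 9 entries, again CRABP1, were called, with 4 of 9 entries at an unadjusted p under 0.05, against 37% of all genes. In PND2N against PND0 the figures were 3.32% of genes (1.91% higher and 1.41% lower) and 0 of 9 entries, with 2 of 9 at an unadjusted limma p under 0.05, against 23.9% of all genes. The median log2 difference of the 9 entries in the day 2 contrast was 0.36, against -0.05 over all genes tested. An F test over the 3 groups called 0 of 9 entries and 6.43% of all genes. These contrasts share the same PND0 libraries.

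Synthesis is taken first. ALDH1A1, a cytosolic retinaldehyde dehydrogenase (chromosome 1, 236169639 to 236220894 on build Sscrofa10.2, minus strand), had normalized values of 1221, 5087, 6518 and 3613 in PND2N animals 1 to 4. It was at 9262, 2009, 2175 and 7139 in PND2R, and at 9402, 8410.0, 3114 and 3511 in PND0. Every group spanned low and high libraries and the 3 groups overlapped. The log2 difference of day 2 to PND0 was -0.52 ± 0.55 (SE, limma, adjusted p = 0.499), with a 95% interval from -1.71 to 0.67. Its 3 lowest values were those of PND2N 1, PND2R 2 and PND2R 3, and without them the difference was 0.22 (adjusted p = 0.708, limma).

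ALDH1A2, the main retinoic acid forming enzyme of embryonic mesenchyme in the mouse (chromosome 1, 118432973 to 118456599, minus strand), is named here from the table's description. Normalized values were 43.5, 329, 529 and 135 in PND2N, and 253, 103, 41.1 and 177 in PND2R, against 401, 580.1, 497 and 469.6 in PND0. The newborn libraries were tight, 487 ± 74.1 (SD, n = 4), while day 2 libraries were spread over a wide range, 259 ± 216 in PND2N and 144 ± 91.6 in PND2R (SD, n = 4 each). All 4 PND2R libraries lay below all 4 PND0 libraries, as did 15.6% of all genes. In PND2N, animal 3 at 529 lay within the newborn range and the other 3 lay below it. The difference was -2.03 ± 0.71 for PND2R (log2, SE, limma, adjusted p = 0.0681) and -1.42 ± 0.71 for PND2N (limma, adjusted p = 0.241). An exact two-sided permutation test for PND2R against PND0 gave p = 0.0286 before adjustment, the smallest that 4 against 4 allows. Over both day 2 groups the difference was -1.72 ± 0.61 (limma, adjusted p = 0.0679). Without the 3 libraries that stood apart it was -0.97 (limma, adjusted p = 0.112).

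ALDH1A3, the third enzyme of the family and one found in many epithelia (chromosome 1, 145883337 to 145909692, plus strand, named from the description), went the other way from ALDH1A2 in its means. Normalized values were 3719, 6866, 8592 and 5956 in PND2N and 10809, 2529.7, 4477 and 9240.2 in PND2R, against 4662, 9515, 1809 and 1929.8 in PND0. The newborn group split into a high pair, animals 1 and 2, and a low pair, animals 3 and 4. That is also how those animals split in summed epithelial markers, and ALDH1A1 was higher in the same pair. The part of epithelial content in the ALDH1A1 and ALDH1A3 values was not tested. The day 2 difference of ALDH1A3 was 0.74 ± 0.49 (log2, SE, limma, adjusted p = 0.275), and 1.25 without PND2N 1, PND2R 2 and PND2R 3 (limma, adjusted p = 0.0998).

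Of the genes that bring retinol to the cell, neither passed the test in a contrast. RBP4, the blood carrier of retinol, made mainly by liver (chromosome 14, 114431744 to 114438472, minus strand), had normalized values of 496, 214, 364 and 235 in PND2N. It was at 129.7, 261, 311 and 172 in PND2R, against 358, 578, 379 and 219.6 in PND0. The groups overlapped, and PND2R held the 2 lowest libraries. The differences from PND0 were -0.23 ± 0.38 for PND2N and -0.81 ± 0.38 for PND2R (log2, SE, limma, adjusted p = 0.722 and 0.147), and the interval for PND2R ran from -1.65 to 0.03. Without the 3 libraries that stood apart, the difference was -1.27 in PND2R and -0.87 over both day 2 groups (limma, adjusted p = 0.109 and 0.0957). Hepatocyte markers were uneven: APOA1 was at 3038 to 9643 and FGB at 64.3 to 362, while ALB was at 8.57 to 77.1, and TTR, the protein that RBP4 travels with in blood, was at the floor of 1 in 11 libraries and at 1.59 in PND2N 3. Over 7 tested hepatocyte markers of 10 listed, sums were 4059 to 10134 in PND2N and 3402 to 8207 in PND2R, against 3269 to 6480 in PND0. In PND2N against PND0, 3.32% of all genes were called and 23.9% had an unadjusted limma p under 0.05. None of the 7 markers was called, while 4 had an unadjusted limma p under 0.05 in that contrast. The list median there was 1.265 on the log2 scale, against -0.04 over all genes. In PND2R against PND0, 0 of the 7 markers were called, where 15% of all genes were. An unadjusted limma p under 0.05 was reached by 0 of the 7 there, against 37% of all genes. The list median in PND2R was 0.73, against -0.06 over all genes. The part of these markers in the RBP4 values was not tested.

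STRA6, the cell-surface receptor that takes retinol from RBP4 (chromosome 7, 64118629 to 64141716, plus strand), had normalized values of 3235, 2918, 1701 and 1994 in PND2N. It was at 1759, 3067, 2469.8 and 1884 in PND2R, against 945, 1742, 2577 and 2447 in PND0. All groups overlapped, and PND0 held the lowest library, animal 1. The day 2 difference was 0.36 ± 0.28 (log2, SE, limma, adjusted p = 0.356), with a 95% interval from -0.25 to 0.98. It was 0.14 without the 3 libraries that stood apart (limma, adjusted p = 0.787) and 0.05 to 0.54 with single libraries left out. In the newborns STRA6 was lower in the pair rich in epithelial markers, the reverse of ALDH1A3.

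CRABP1, a cytoplasmic protein that binds retinoic acid (chromosome 7, 52817317 to 52823879, minus strand), lies inside the gene WDR61 on the other strand. Whether the authors' counting used strand is not given, so reads of these 2 genes may not have been told apart. CRABP1 had normalized values of 21643, 10689, 9828 and 11225 in PND2N and 8466, 14174.5, 17143 and 9081 in PND2R, against 5107, 7025, 6511 and 6648 in PND0. No day 2 library overlapped the newborn range, which 6.67% of all genes showed in the same direction (8.14% for PND2N alone and 12.7% for PND2R alone). Group means were 13346 ± 5561 in PND2N and 12216 ± 4163 in PND2R, against 6323 ± 839 in PND0 (SD, n = 4 each). The day 2 difference was 0.95 ± 0.24 (log2, SE, limma, adjusted p = 0.0226) with a 95% interval from 0.43 to 1.48.

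By feeding group, CRABP1 passed in PND2R against PND0 with 0.90 ± 0.28 (log2, SE, limma, adjusted p = 0.0493). It missed in PND2N against PND0 with 1.01 ± 0.28 (limma, adjusted p = 0.0669), a difference that was no smaller. The 3 highest libraries were PND2N 1, PND2R 3 and PND2R 2, those that stood apart. Without them the day 2 difference was 0.62 ± 0.13 and still passed (limma, adjusted p = 0.0238). In that smaller fit PND2N passed with 0.75 (limma, adjusted p = 0.0417), as did 0.756% of all genes upwards and 0.894% downwards. PND2R, left with 2 libraries, had 0.48 (limma, adjusted p = 0.136), where 0.702% of all genes passed upwards and 1% downwards. The day 2 call ended when PND0 1, PND0 3 or PND0 4 was left out, with limma adjusted p of 0.0600, 0.0527 and 0.0594. The PND2R call ended in 9 of the 12 fits with a library left out; it held without PND2N 1, PND2N 3 or PND2R 1.

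CRABP2, the second binding protein, which hands retinoic acid to its nuclear receptors (chromosome 4, 98367230 to 98372896, plus strand), had normalized values of 1936, 1109, 827 and 1206.5 in PND2N. It was at 1155, 1779, 1992 and 1197 in PND2R, against 729, 1174, 740.5 and 573 in PND0. Only PND0 2, at 1174, reached into the day 2 range, where 3 libraries lay below it. The difference from PND0 was 0.94 ± 0.30 in PND2R (log2, SE, limma, adjusted p = 0.0522) and 0.64 ± 0.30 in PND2N (limma, adjusted p = 0.212). Without PND0 2 the PND2R difference passed, as it did without PND2N 1, PND2N 3 or PND2R 1. Without the 3 libraries that stood apart, the day 2 difference was 0.51, against 0.79 with them (limma, adjusted p = 0.167 and 0.0517).

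The CRABP2-like entry (chromosome 4, 98514735 to 98535217, minus strand) is described in the table as a CRABP2-like gene and overlaps an entry like IQGAP3 on the same strand, so its reads may be shared with either. Its normalized values were 799, 224, 249.5 and 493 in PND2N and 410.0, 740.3, 901 and 443 in PND2R, against 246, 461, 196 and 169.5 in PND0. The order of libraries was close to that of CRABP2, with PND2R 3, PND2N 1 and PND2R 2 at the top and PND0 4 at the bottom in both. The PND2R difference from PND0 was 1.25 ± 0.45 (log2, SE, limma, adjusted p = 0.0741), and 0.78 without the 3 libraries that stood apart (limma, adjusted p = 0.329). Over both day 2 groups it was 0.94, and 0.53 without those libraries (limma, adjusted p = 0.104 and 0.330). The PND2R difference passed without PND2N 1 or without PND0 2 (limma, adjusted p = 0.0406 and 0.0472).

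CYP26B1, which oxidises retinoic acid for clearance (chromosome 3, 73584647 to 73600794, minus strand, named from the description), lies inside EXOC6B on the other strand. A short unnamed entry on that other strand lies inside CYP26B1. Use of strand is not given, so reads of these entries may not have been told apart from those of CYP26B1. CYP26B1 was the most variable member, with a 50.6-fold span between its highest and lowest library. Normalized values were 3.63, 23.4, 40.7 and 24.7 in PND2N, and 69.6, 9.74, 4.82 and 78.0 in PND2R, against 183, 68.1, 54.6 and 81.2 in PND0. All 4 PND2N libraries lay below all 4 PND0 libraries, as did 7.88% of all genes. In PND2R, animals 1 and 4 lay within the newborn range and animals 2 and 3 far below it. The differences were -2.23 ± 0.91 for PND2N and -1.85 ± 0.91 for PND2R (log2, SE, limma, adjusted p = 0.164 and 0.158). Without the 3 libraries that stood apart they were -1.56 for PND2N and -0.23 for PND2R (limma, adjusted p = 0.0794 and 0.822). Over both day 2 groups the difference was -2.04 with all libraries and -0.89 without those (limma, adjusted p = 0.0851 and 0.156).

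**Figure D2:**
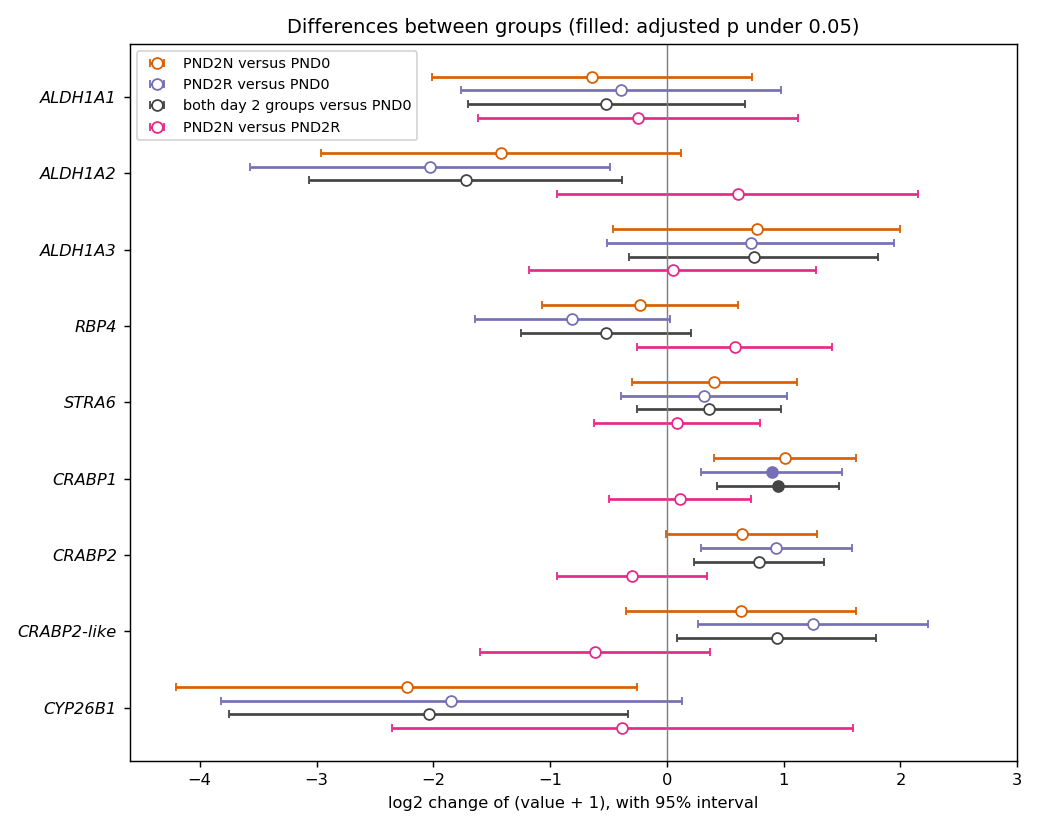
Log2 differences (horizontal axis) of the 9 retinoid entries in each contrast, told apart by colour, with 95% intervals from limma. Filled points have an adjusted p under 0.05. Only CRABP1 is filled, for PND2R against PND0 and for day 2 against PND0, and the intervals of CYP26B1 and ALDH1A2 are the widest among those that lie mostly below 0.

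Feed at the same age was tested by PND2N against PND2R. None of the 9 entries passed (limma, adjusted p above 0.999 for each), none had an unadjusted p under 0.05 against 2.68% of all genes, and 2 of all tested genes were called, 0.0119%. The 2 groups overlapped for all 9 entries, while 1.39% of all genes lay higher and 1.16% lower in PND2N without overlap. The interval of the CRABP1 difference ran from -0.49 to 0.72 on the log2 scale, and that of CYP26B1 from -2.35 to 1.59. The CRABP1 interval does not reach 0.95, the difference measured for CRABP1 between day 2 and PND0. That day 2 difference has its own interval, from 0.43 to 1.48, which overlaps the interval for feed. Without the 3 libraries that stood apart the day 2 difference of CRABP1 was 0.62, a value inside the interval for feed. The CYP26B1 interval is wide on both sides of 0. The point differences were 0.60 for ALDH1A2, 0.58 for RBP4 and -0.61 for CRABP2-like. Their intervals ran from -0.94 to 2.15, from -0.26 to 1.42 and from -1.60 to 0.37, each including 0. Without the 3 libraries that stood apart, CYP26B1 was at 23.4, 24.7 and 40.7 in PND2N and at 69.6 and 78.0 in PND2R. That difference, -1.33 ± 0.51 (log2, SE, limma), did not pass either, and 0.018% of all genes passed in each direction in that fit. The share of all genes without overlap among these few libraries was not computed, so nothing is read from the separation of CYP26B1.

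Within day 2, the members fell into an opposed pattern across animals. PND2N 1, PND2R 2 and PND2R 3 were the 3 lowest of the 12 libraries for ALDH1A1, ALDH1A2 and CYP26B1. The same animals were the 3 highest for CRABP1, CRABP2 and CRABP2-like. CYP26B1 was at 3.63 to 9.74 in them, against 23.4 to 183 in the other 9, and ALDH1A2 was at 41.1 to 103, against 135 to 580.1. CRABP2 was at 1779 to 1992 in them, against 573 to 1206.5 elsewhere. The pattern is common in these data: 21.9% of all tested genes had those 3 libraries lowest and 15.8% had them highest. It moved with higher smooth muscle and lower stromal marker sums in the same animals, and with the lower median values, larger totals and larger floor shares of the same libraries, given above. Other summed markers also set those 3 libraries apart from the other 9. Hepatocyte (7766 to 10134, against 3269 to 6744), adipocyte (2296 to 2562, against 821 to 1706) and ovarian sums (4410 to 4951, against 1602 to 3521) were higher. Mesothelium sums were lower (12016 to 12969, against 13375 to 17829). Epithelial, endothelial, leukocyte and erythroid sums overlapped. Sums are weighted towards the highest markers of a list. By each list's median of log2(value + 1) minus the gene's mean over the 12 libraries, hepatocyte, adipocyte and mesothelium markers overlapped too. Hepatocyte medians were -0.46 to 0.95 in those 3 libraries, against -1.06 to 0.40 in the other 9. Smooth muscle, stromal and ovarian medians did not overlap. The part of those cell types and of those library-wide measures in the retinoid values was not tested. ALDH1A3 was also lower in those 3 libraries than in the other 5 of day 2, at 2529.7 to 4477 against 5956 to 10809, although PND0 3 and PND0 4 were lower still. RBP4, at 261 to 496 against 129.7 to 364, and STRA6, at 2469.8 to 3235 against 1701 to 2918, overlapped between those 3 and the other 5.

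**Figure D3:**
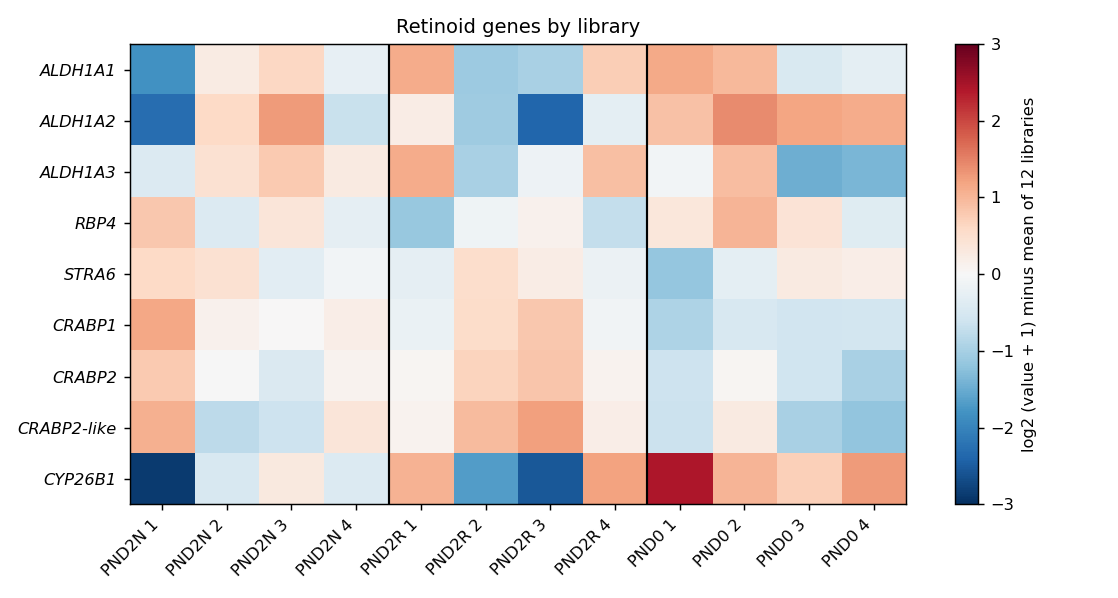
Log2(value + 1) of each retinoid entry (rows) minus its mean over the 12 libraries (columns, PND2N, PND2R, PND0), as colour. PND2N 1, PND2R 2 and PND2R 3 show the lowest colours for ALDH1A1, ALDH1A2 and CYP26B1 and the highest for CRABP1, CRABP2 and CRABP2-like.

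Around these members, 5 lists of related genes were examined, and 94 of their 113 entries were found. For the conversion of retinol and retinaldehyde, 5 of 18 tested genes were called in the day 2 contrast, 4 higher and 1 lower, where 18.1% of all genes were called, 9.57% higher and 8.49% lower. The list's median log2 difference was 0.30, against -0.05 over all genes. ADH5, an alcohol dehydrogenase best known for formaldehyde clearance, rose, with 6882 to 8097 in PND2N and 7431 to 7792 in PND2R, against 3920.3 to 5938 in PND0. No day 2 library overlapped PND0, as for 6.67% of all genes in that direction. The difference of ADH5 was 0.59 ± 0.12 (log2, SE, limma, adjusted p = 0.0117). RDH11, a retinaldehyde reductase, rose by 0.71 ± 0.20 (limma, adjusted p = 0.0315). That call ended without PND2N 4, PND0 3 or PND0 4 (limma, adjusted p = 0.0610, 0.0952 and 0.107). DHRS4, another reductase, rose by 0.77 ± 0.20 (limma, adjusted p = 0.0239), and its call ended without PND0 3, without PND0 4 and without the 3 libraries that stood apart (limma, adjusted p = 0.0693, 0.0839 and 0.0857).

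LPL, the lipase that frees fatty acids from circulating fat particles and helps cells take up their retinyl esters, fell. It was at 48.7, 191, 174 and 85.5 in PND2N and at 73.7, 24.1, 15.5 and 75.4 in PND2R, against 325, 380.3, 433 and 610.4 in PND0. Every day 2 library lay below every newborn one, as for 6.62% of all genes. The day 2 difference was -2.70 ± 0.49 (log2, SE, limma, adjusted p = 0.00698), and -2.04 without the 3 libraries that stood apart (limma, adjusted p = 0.0101). DHRS9, a retinol dehydrogenase read here at 1 to 25.1, was the remaining call, at 1.77 ± 0.49 (limma, adjusted p = 0.0303). It was at the floor in PND0 3 and PND0 4, and the call ended without PND2N 4, PND2R 2, PND2R 3, PND0 3 or PND0 4 and without the 3 libraries together.

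Among 7 other retinoid carriers tested (median 0.59), 2 were called at day 2, both higher, where 9.57% of all genes were called higher. Of these, RBP7, a cytoplasmic retinol carrier, rose by 0.75 ± 0.24 (limma, adjusted p = 0.0483), a call that ended in 9 of the 12 fits with a library left out and held without PND2N 3, PND2R 1 or PND0 2. It was also lost without the 3 libraries that stood apart (limma, adjusted p = 0.147).

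Of 14 receptors and coregulators (median -0.18), 2 were called at day 2, both lower, where 8.49% of all genes were called lower. Of these, NCOA3, a coactivator whose entry overlaps 2 others, fell by 0.59 ± 0.18 (limma, adjusted p = 0.0429), and that call was lost in 8 of the 12 fits with a library left out and without the 3 libraries together. It held without PND2N 2, PND2N 3, PND2R 1 or PND2R 4. None of the receptors themselves passed. RARB, the receptor whose own gene responds to retinoic acid in many cells, averaged 896 ± 80.3 in PND2N and 783 ± 99.4 in PND2R, against 659 ± 61.1 in PND0 (SD, n = 4 each). The difference at day 2 was 0.34 ± 0.14 (limma, adjusted p = 0.0948).

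**Figure D4:**
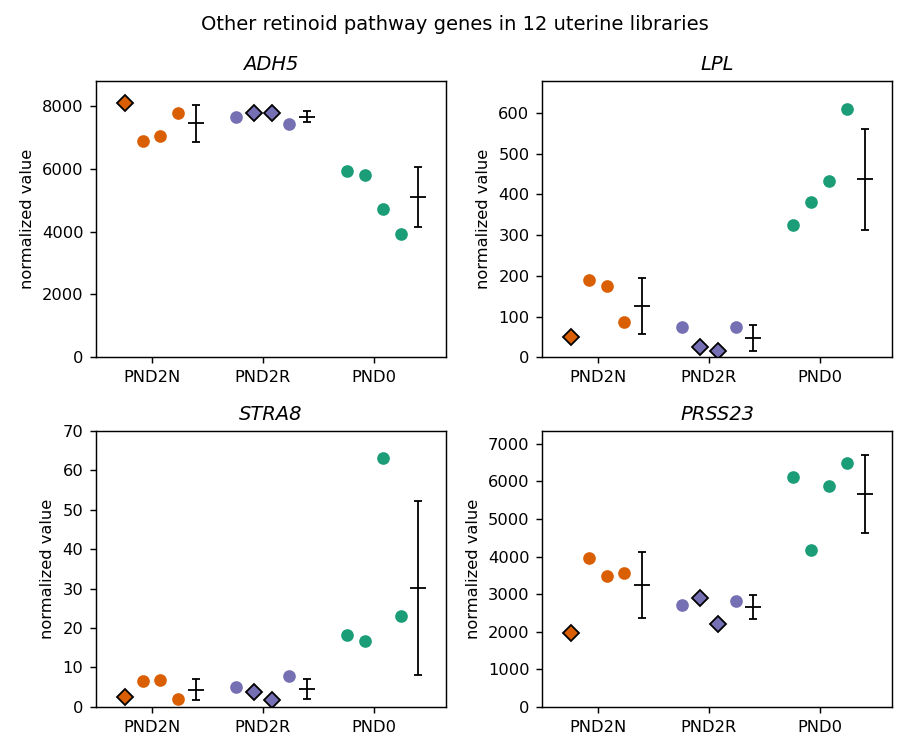
Normalized values (linear scale) of 4 other genes of the retinoid lists in each uterus, with the mean and SD of 4 animals in black and the libraries that stood apart as black-edged diamonds. Day 2 libraries lie above PND0 for ADH5 and below it for LPL, STRA8 and PRSS23, with no overlap in any panel. Of all genes, 6.67% lay higher and 6.62% lower at day 2 without overlap. The 4 genes shown are among those called at day 2.

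Genes known to be induced by retinoic acid in other cells held calls in both directions, where 18.1% of all genes were called. Of 25 tested, 1 was called higher at day 2 and 5 lower, with a median of 0.10 against -0.05 over all genes. STRA8, a germ cell gene named for its response to retinoic acid, was low throughout, at 2.42, 6.45, 6.87 and 1.92 in PND2N and at 5.12, 3.74, 1.74 and 7.84 in PND2R. In PND0 it was at 18.3, 16.6, 63.0 and 23.0, above every day 2 library, as for 6.62% of all genes. Its day 2 difference was -2.42 ± 0.46 (log2, SE, limma, adjusted p = 0.00833). A second entry of the table is described as like STRA8, so its reads may be split between them.

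PRSS23, a secreted serine protease, was at 1975 to 3959 in PND2N and 2202 to 2899 in PND2R, against 4169 to 6496 in PND0. It fell by 0.96 ± 0.19 on the log2 scale (limma, adjusted p = 0.00988). RAI14, an actin-binding protein, fell by 1.69 ± 0.45 (limma, adjusted p = 0.0275), and the call ended without PND2N 4, PND2R 2, PND0 1, PND0 3 or PND0 4. The homeobox genes MEIS1 and MEIS2 fell by 1.24 ± 0.38 and 0.86 ± 0.28 (limma, adjusted p = 0.0440 and 0.0492). Their calls were lost without the 3 libraries that stood apart, with adjusted p of 0.0827 and 0.119. In the fits with a library left out, the MEIS1 call was lost in 7 of 12 and held without PND2N 1, PND2N 2, PND2N 3, PND2R 1 or PND2R 4. The MEIS2 call was lost in 9 of 12 and held without PND2N 2, PND2N 3 or PND0 1.

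Of 25 tested genes of Mullerian tract development, a list of genes that pattern or mark the tract, 2 were called higher and 1 lower at day 2. Of all genes, 9.57% were called higher and 8.49% lower. The list's median log2 difference was -0.08, against -0.05 over all genes. ESR1, the oestrogen receptor that uterine cells need for growth, was at 4962, 7785, 5520.2 and 4286 in PND2N and at 5978, 3910.0, 4235 and 5425 in PND2R. In PND0 it was at 1035, 1574, 3184 and 3033, below every day 2 library, as for 6.67% of all genes. It rose by 1.37 ± 0.29 (log2, SE, limma, adjusted p = 0.0125); 2 rows carry this symbol, and the one with the higher mean was used. PGR, the progesterone receptor, fell by 2.08 ± 0.59 (limma, adjusted p = 0.0331), and its entry overlaps ARHGAP42. The PGR call was lost in 7 of the 12 fits with a library left out and held without PND2N 1, PND2N 2, PND2N 3, PND2R 1 or PND2R 4.

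HOXA13, a homeobox gene of the distal tract, rose by 2.64 ± 0.77 (limma, adjusted p = 0.0367), from values of 3.53 to 83.4 in PND2N and 14.1 to 56.9 in PND2R, against 1.15 to 15.6 in PND0. That call was lost without the 3 libraries that stood apart (adjusted p = 0.126) and in 7 of 12 fits with a library left out; it held without PND2N 2, PND2N 3, PND2R 1, PND2R 4 or PND0 3. WNT4, a signal needed to form the Mullerian duct, was called in PND2R against PND0 alone, at 1.27 ± 0.35 (limma, adjusted p = 0.0323), against an adjusted p of 0.307 in PND2N. The 2 differences were not shown to differ, since PND2N against PND2R gave -0.69 ± 0.35 for WNT4 and did not pass. The WNT4 call was lost without PND2R 2, PND2R 3, PND2R 4, PND0 1, PND0 2 or PND0 4, and without the 3 libraries that stood apart (limma, adjusted p = 0.190).

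In the 5 lists, no gene passed between PND2N and PND2R. The day 2 calls of ADH5, LPL, STRA8, PRSS23 and ESR1 held under each of the 21 alternative settings run for that contrast, including each fit with a library left out. Without PND2N 1, PND2R 2 and PND2R 3, the day 2 calls were 2 higher and 1 lower of 17 in retinol conversion, 1 higher of 7 carriers, 1 lower of 14 receptors and coregulators, 1 higher and 3 lower of 25 induced genes, and 1 higher and 1 lower of 25 tract genes. The share of all genes called in that smaller fit was 3.78% higher and 4.73% lower.

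As a description of which genes varied like the members, standardised log2 profiles over the 12 libraries were compared with 11122 genes that have a symbol and a mean of at least 10. The root mean square difference was 0.24 between CRABP1 and NT5DC2 and 0.25 between CRABP1 and ANXA6, where the median gene was at 1.36. ALDH1A2 was closest to TFDP1, at 0.13, and ZCRB1, at 0.14, and ALDH1A1 to LGR5, at 0.18, and DSG2, at 0.20. CYP26B1 was closest to ZMYND8 and PLEKHA1, at 0.27 and 0.28. CRABP2 was closest to UTP3 and RBCK1, both at 0.21, and CRABP2-like to PTRH2 and GAPDH, at 0.20 and 0.21. The closest genes to RBP4, SRA1 at 0.44 and PGAP3 at 0.48, were less near than those of the other members. The median gene was at 1.43 from RBP4. STRA6 was closest to AFF3, at 0.28, and ALDH3A1, at 0.34, and ALDH1A3 to ABCC3, at 0.29, and LCP1, at 0.33. These profiles share libraries, and for most members they share the 3 libraries that stood apart.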

How the data were processed

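RNA of 12 uteri, 4 per group, was sequenced. The labels' protocols give column-purified total RNA and an mRNA library kit; per the submitters' processing notes, bcl2fastq was used and the build was Sscrofa10.2. Of the aligner, the counting, its use of strand and the scaling, each is not given in the sources used here. The authors deposited 1 table of 20390 genes with a normalized signal value per gene and library, linear, with a floor of 1. Totals were 26534100 to 29544100. Only 31.5% to 39.3% of low values were whole multiples of 0.5 times a library's commonest low value (within 0.02 of a step), so read counts were not recovered and depth is unknown. Precision therefore rests on 4 animals per group.

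Computed here: log2(value + 1), a filter of values above 1 in at least 4 of 12 libraries (16862 genes), and limma 3.58.1 (R 4.3.3; trend and robust moderation; 1 fit of all groups; 4 contrasts and an F test), with Benjamini-Hochberg adjustment over all genes tested; members also got exact permutation tests. The code was tested on simulated data. Alternatives changed the pseudocount (0.1, 5), the filter (none, 10), the scaling (TMM, quantile), moderation, weights, the groups fitted, a 2-fold threshold and single libraries. Figures used matplotlib 3.10.9. Genes were named by an NCBI table, which matched 14468 IDs, and otherwise by the deposited description; coordinates are those of the deposited table. Members and lists were chosen with earlier results of these data known. Named genes are all members, list genes called in a contrast or, failing that, up to 3 with the smallest F test p, of which RARB is given; TTR, ALB, VWF, HOXA10 and HOXA11 serve as checks. Some called list genes are not reported here. Replicate numbers are in accession order and pair no animals.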

Additional observations from a re-analysis of the deposited data

Results flagged for a closer look

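In groups of 4, 81 sets of values were examined for a library set apart from the rest by Dixon's 95% criterion on its gap to the nearest neighbour; 3 had one, and chance flags about 1 set in 20. CRABP1 in PND2N 1 was at 21643, where the other nursed uteri were at 9828 to 11225. HOXA13 in PND0 3 was at 15.6, where the other newborn uteri were at 1.15 to 2.85. STRA8 in PND0 3 was at 63.0, where the other newborn uteri were at 16.6 to 23.0.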

How the results depend on the processing

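The direction of each member's difference is given above with all libraries; under the settings run no called value changed sign. Counts of members called moved as follows. In PND2N against PND0 (0 called), quantile normalization and leaving out PND2N 1, PND2R 2 and PND2R 3 each gave 1, CRABP1. In PND2R against PND0 (1 called), TMM and quantile normalization each gave 2 and a fit of only the compared groups gave 3 (ALDH1A2, CRABP1, CRABP2), while no filter, plain empirical Bayes, library quality weights, the 2-fold threshold and leaving out those 3 libraries each gave 0; single libraries left out gave 0 to 4. In the day 2 contrast (1 called), a filter at 10, TMM and quantile normalization each gave 2, the 2-fold threshold gave 0, and single libraries left out gave 0 to 3. The F test over the 3 groups called 0 members, 1 after quantile normalization, and 0 to 1 with single libraries left out; 6.43% of all genes passed it. PND2N against PND2R gave 0 members under each setting run, with 2.68% of all genes at an unadjusted limma p under 0.05. ALDH1A2 passed in the day 2 contrast without PND2N 3 or PND2R 1 (adjusted p = 0.0314 and 0.0464). The cause of these shifts was not tested. The quality weights stopped before their convergence tolerance. A fit of only the compared groups was not run for the day 2 contrast, which uses all groups. No paired analysis was possible because the labels give no replicate numbers or litters that groups share. Depth is unknown, so the number of reads behind low genes such as CYP26B1 and STRA8 is not known.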
